A study of Mus musculus with 11 samples.

Results

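The hippocampus of mice that carried a skin melanoma, with no checkpoint inhibitor given, was compared with that of tumour-free mice through 5 sections imaged by MERFISH, an imaging method in which fluorescent probes with barcodes mark single RNA molecules where they lie. The members were the 2 MELANOMA and 3 CONTROL sections of the 11 in the series, taken from their labels alone. In them every segmented object of at least 100 µm3 that held at least 10 transcripts counted as a cell, which gave 123567 cells of the 232117 in the whole series. All mice were adult male wild-type C57Bl/6 animals of 10 to 12 weeks, and both groups received isotype-matched control antibodies into the peritoneum. MELANOMA mice also carried tumours of D4M-3A.UV2, a cultured mouse melanoma line, after 500000 cells were placed in the skin on both sides and left for 1 week to engraft before antibodies began. The labels give 3 weeks for the inhibitor regimen of the series, without saying so separately for the isotype antibodies, and sections 10 µm thick. The tumours lay in the skin, and the labels mention no tumour cells in the brain. No label ties a section to a mouse. The p-values therefore speak only of the spread among these sections, which may be technical.

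The hippocampus is a folded sheet in which the cell bodies of pyramidal neurons and granule cells lie tightly packed in thin curved layers. Between the layers lies neuropil, a felt of dendrites and axons with scattered interneurons and glia. A large neuron with much cytoplasm holds more RNA than a small glial cell, and a thin section cuts most cell bodies at a random level, so an object in such a table is often a slice of a cell. DAPI binds DNA and marks nuclei, and PolyT probes bind the tails of messenger RNA and mark cytoplasm. The tables used here hold 1 transcript total per object and no gene, so the tissue label was not checked against marker genes and no cell type is named.

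The sections came from 3 imaging runs, read from the first 4 digits of the object identifiers. CONTROL 1 and MELANOMA 1 shared run 1, CONTROL 2 and MELANOMA 2 shared run 2, and CONTROL 3 lay in run 3 with no MELANOMA section beside it. The identifiers of CONTROL 2 and MELANOMA 2, 18 digits long, had 6 leading digits in common. Those of CONTROL 1 and MELANOMA 1, 19 digits long, had 7. The assignment to run 2 thus rests on fewer digits, of a shorter identifier. MELANOMA ICI 3, a section given inhibitors and also read as run 2, shared 5 with CONTROL 2 and with MELANOMA 2. The fields of MELANOMA 2 were numbered 143 to 435 and those of CONTROL 2 436 to 701, without a break. The 5 sections held 53522 (CONTROL 3) to 77643 (CONTROL 1) objects and 633088 (CONTROL 1) to 3164943 (CONTROL 3) assigned transcripts, and no object identifier occurred in more than 1 of them. The tables name no unit of length, and volumes were read as µm3 and positions as µm.

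CONTROL 3 stood apart from the other 4 sections. Cells made up 86.1% of its objects, against 17.9% in CONTROL 1, 32.2% in CONTROL 2, 26.5% in MELANOMA 1 and 30.6% in MELANOMA 2. Its objects differed little in volume relative to their outline box. Volume divided by the area of the object's bounding box, a mean depth, had a median of 7.38 µm in its cells, and 99.8% of them reached at least 4 µm. In the other 4 sections the median depth was 1.60 to 2.26 µm, and 14.8% (CONTROL 1) to 26.2% (MELANOMA 2) of cells reached 4 µm. Run 3 also held CONTROL ICI 3 and MELANOMA ICI 1, sections given checkpoint inhibitors and outside this comparison. Their median depths were 7.31 and 7.37 µm, and 99.8% and 99.9% of their cells reached 4 µm. Their median volumes were 1486 and 1650 µm3, next to 1608 µm3 in CONTROL 3. Depth and volume were thus alike across run 3 and not particular to CONTROL 3. The share of objects kept as cells was less alike, with 54.0% in CONTROL ICI 3 and 75.1% in MELANOMA ICI 1. Their median transcripts per cell were 26 and 35, next to 50 in CONTROL 3. The deposited shape value called solidity followed this depth cell by cell in the 4 sections of runs 1 and 2, with a Spearman correlation of 0.99 over the cells of each, and less so in CONTROL 3 (0.61). These are descriptions over cells, and both values come from the same outline. Because CONTROL 3 alone represents run 3, each of the 6 main measures below is given over all 5 sections and within runs 1 and 2, and the descriptions of size, shape and fields mostly within those runs.

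The comparison asked how cells of these sections, labelled as hippocampus, differed when a skin tumour was present and no checkpoint inhibitor was given. Over all 5 sections none of the 6 section medians differed between the groups beyond the spread between sections. A two-sided exact permutation of the section labels, with Benjamini-Hochberg adjustment over the 6 measures, passed 0 of 6 at 0.05, and 0 of 6 before adjustment. In this design of 3 against 2 sections no p below 0.1 is possible, so a pass could not occur. MELANOMA and CONTROL overlapped in all 6 measures.

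Cell volume showed the most even pattern. The median cell measured 744 µm3 in CONTROL 1, 735 µm3 in CONTROL 2 and 1608 µm3 in CONTROL 3, and 894 µm3 in MELANOMA 1 and 910 µm3 in MELANOMA 2. Both MELANOMA sections thus lay above the 2 CONTROL sections of runs 1 and 2 and below the CONTROL section of run 3. The mean was 902 ± 10.9 µm3 in MELANOMA (SD, n = 2) and 1029 ± 502 µm3 in CONTROL (n = 3), a log2 difference of -0.09 (0.942-fold; exact permutation p = 1, adjusted p = 1). Over all objects with no filter it was -0.86 (0.552-fold; exact permutation p = 1). Within runs the sign turned. MELANOMA 1 had 1.20 times the median volume of CONTROL 1 in run 1, and MELANOMA 2 had 1.24 times that of CONTROL 2 in run 2. The mean within-run log2 difference was 0.29 (1.22-fold; exact permutation p = 0.5, the smallest that 2 pairs allow), and without CONTROL 3 the same value was obtained.

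The volume difference within runs spanned the whole distribution. At each of 8 percentiles from the 5th to the 99th, cells of the MELANOMA section were larger in both runs, by 1.10 to 1.20 times in run 1 and by 1.11 to 1.24 times in run 2. The 10th percentile was 249 µm3 in CONTROL 1 and 280 µm3 in MELANOMA 1, and 244 µm3 in CONTROL 2 and 280 µm3 in MELANOMA 2. The 90th percentile was 1787 µm3 in CONTROL 1 and 2129 µm3 in MELANOMA 1, and 1928 µm3 in CONTROL 2 and 2198 µm3 in MELANOMA 2. The 5th and 99th percentiles differed less than the median in both runs. Cells of at least 1600 µm3 made up 13.3% in CONTROL 1 and 20.5% in MELANOMA 1, and 15.7% in CONTROL 2 and 21.8% in MELANOMA 2. Wilson intervals at 95% on these 4 shares reach at most 0.588 percentage points to either side and cover counting error only.

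With the filter used here, sections of one group were closer to each other in volume than to the other group, across runs 1 and 2. The largest gap between the cumulative distributions of 2 sections was 1.31% of cells between MELANOMA 1 and MELANOMA 2 and 2.41% between CONTROL 1 and CONTROL 2. Between a MELANOMA and a CONTROL section of runs 1 and 2 it was 9.79% to 10.5%, in the same run or not. CONTROL 3 was 34.2% to 44.3% away from each of the other 4. For the 4 sections of runs 1 and 2 the gaps with this filter were therefore smaller within a label than between labels. Whether the tumour or another difference between the sections lay behind this was not tested. These 4 sections are too few for a test at 0.05. Other filters did not keep this grouping in the medians. Without a filter they were 173 µm3 in CONTROL 1, 195 µm3 in CONTROL 2 and 205 µm3 in both MELANOMA sections, with CONTROL 2 nearer to MELANOMA. From 200 µm3 and 50 transcripts upwards CONTROL 1 (1423 µm3) lay nearer to MELANOMA 1 (1435 µm3) than to CONTROL 2 (1359 µm3).

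**Figure D1:**
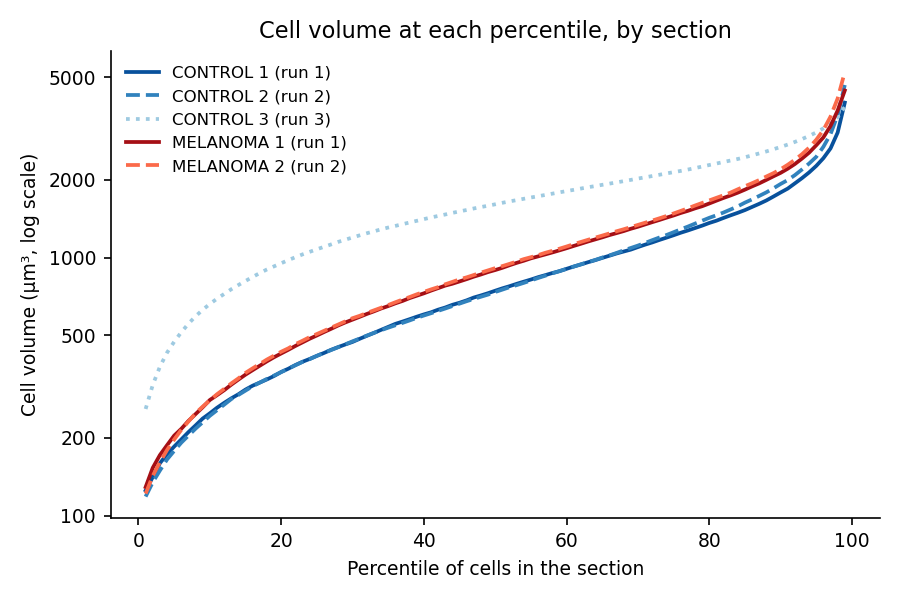
Cell volume (µm3, log scale) at each percentile of cells, 1 line per section, solid for imaging run 1, dashed for run 2 and dotted for run 3. The lines of MELANOMA 1 and 2 nearly coincide (medians 894 and 910 µm3), as do those of CONTROL 1 and 2 (744 and 735 µm3), and CONTROL 3 lies above them over most percentiles (1608 µm3).

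The spread between sections of 1 group in 1 run could be read from a single pair in the series, CONTROL ICI 1 and CONTROL ICI 2, tumour-free mice given antibodies to CTLA-4 and PD-1, the checkpoint inhibitors of the series, and imaged in run 1. In CONTROL ICI 2, 49.8% of objects held no transcript, against 35.5% in CONTROL ICI 1, so the pair is not an even one in this respect. In the share of objects kept as cells CONTROL ICI 1 (12.1%) and CONTROL ICI 2 (11.7%) were close. CONTROL 1 (17.9%) and MELANOMA 1 (26.5%) were less even in that share, which also limits the volume ratio of run 1. The median volumes of CONTROL ICI 1 and 2 were 788 and 846 µm3, a ratio of 1.07, and their largest cumulative gap was 4.05% of cells. Both tumour ratios at the median were larger than this, but at the 95th percentile the pair had 1.17, where the tumour ratios were 1.20 and 1.16, and at the 99th it had 1.14, above both tumour ratios (1.11 and 1.12). Among the 5 sections of run 1 MELANOMA 1 had the highest median volume and CONTROL 1 the lowest, with the 3 sections given inhibitors between them at 788 to 846 µm3. Among the 3 sections of run 2 MELANOMA 2 had the highest, and MELANOMA ICI 3, from tumour-bearing mice given inhibitors, the lowest at 546 µm3. Sections of run 2 thus differed by more than the tumour ratio seen there, but MELANOMA ICI 3 also differed in treatment. Run 2 holds no 2 sections of 1 group, so a spread within a group cannot be read there.

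The larger volume was made up differently in the 2 runs. In run 1 the footprint of the cells, the area of the bounding box, had a median of 407 µm2 in CONTROL 1 and 397 µm2 in MELANOMA 1. Depth had medians of 1.60 µm in CONTROL 1 and 2.15 µm in MELANOMA 1. In run 2 the footprint was 352 µm2 in CONTROL 2 and 391 µm2 in MELANOMA 2, and the depth was 2.18 and 2.26 µm. On the log2 scale the mean volume difference of 0.24 in run 1 was the sum of -0.05 in footprint and 0.29 in depth, and that of 0.25 in run 2 the sum of 0.12 in footprint and 0.12 in depth. Depth was higher in MELANOMA at all 8 percentiles in both runs, and footprint at 2 of 8. Cells with a depth value under 1 µm made up 26.3% in CONTROL 1 and 16.3% in MELANOMA 1, and 26.2% in CONTROL 2 and 22.7% in MELANOMA 2. Cells with the lowest values had wide boxes. Under 0.5 µm the median box was 1244 µm2 in CONTROL 1 and 1703 µm2 in CONTROL 2, and from 4 µm upwards 253 and 254 µm2. The CONTROL ICI pair of run 1 had depths of 1.58 and 1.85 µm, a ratio of 1.16, next to 1.35 for the tumour pair of run 1 and 1.04 for that of run 2. MELANOMA ICI 2 of the same run had 2.12 µm. As depth is volume over footprint, the parts in footprint and depth add up by definition. Depth in this sense also falls where an outline fills little of its box, so a low value need not mean a thin cell. The depth of an object depends on the outlines drawn in each optical plane, and the part of this in the volume difference was not tested.

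**Figure D2:**
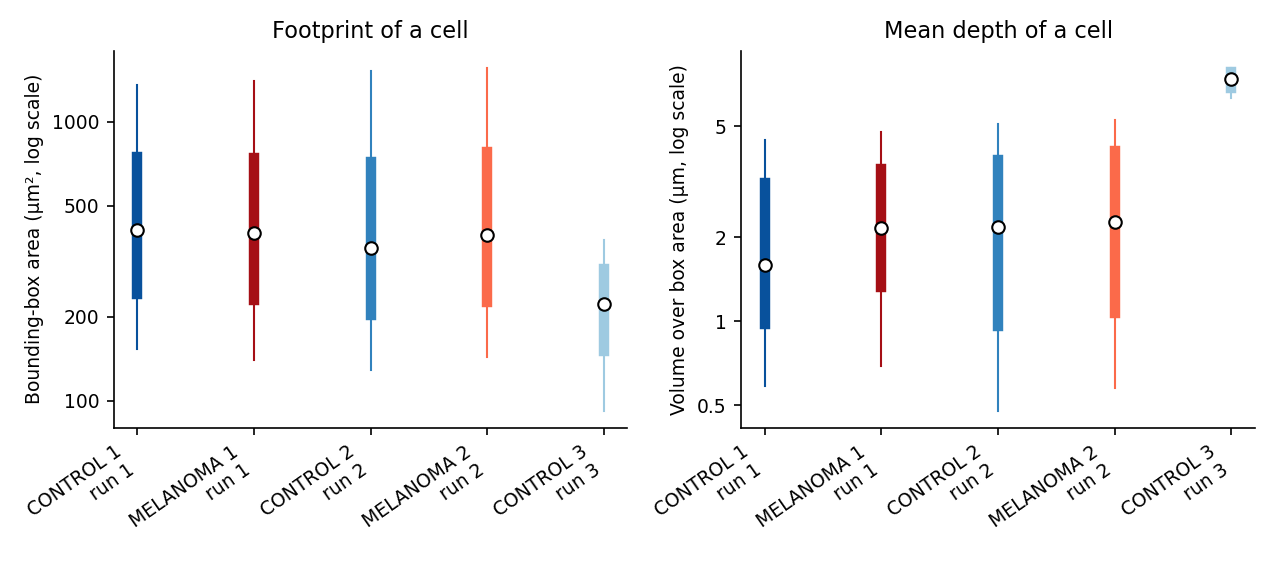
Bounding-box area (µm2, left) and volume over that area (µm, right) of the cells in each section, both on log scales. Circles are medians, thick bars run from the 25th to the 75th percentile and thin bars from the 10th to the 90th. MELANOMA 1 exceeds CONTROL 1 in depth (2.15 against 1.60 µm) and not in footprint, MELANOMA 2 exceeds CONTROL 2 more in median footprint (391 against 352 µm2) than in median depth (2.26 against 2.18 µm), and cells of CONTROL 3 have the smallest median footprint (221 µm2) and the largest median depth (7.38 µm).

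Larger cells were found over most of each MELANOMA section. Of the 231 imaging fields of MELANOMA 1 with at least 20 cells, 199 (86.1%) had a median volume above that of the median field of CONTROL 1. In MELANOMA 2 this held for 257 of 283 fields (90.8%) set against CONTROL 2. For CONTROL ICI 2 against CONTROL ICI 1 the number was 136 of 217 (62.7%). Field medians in CONTROL 1 ran from 598 µm3 (10th percentile) to 1064 µm3 (90th), and in MELANOMA 1 from 727 to 1279 µm3. In CONTROL 2 they ran from 599 to 940 µm3 and in MELANOMA 2 from 747 to 1149 µm3. Fields of 1 section come from the same piece of tissue, so these counts describe the 2 pairs of sections and test nothing.

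**Figure D3:**
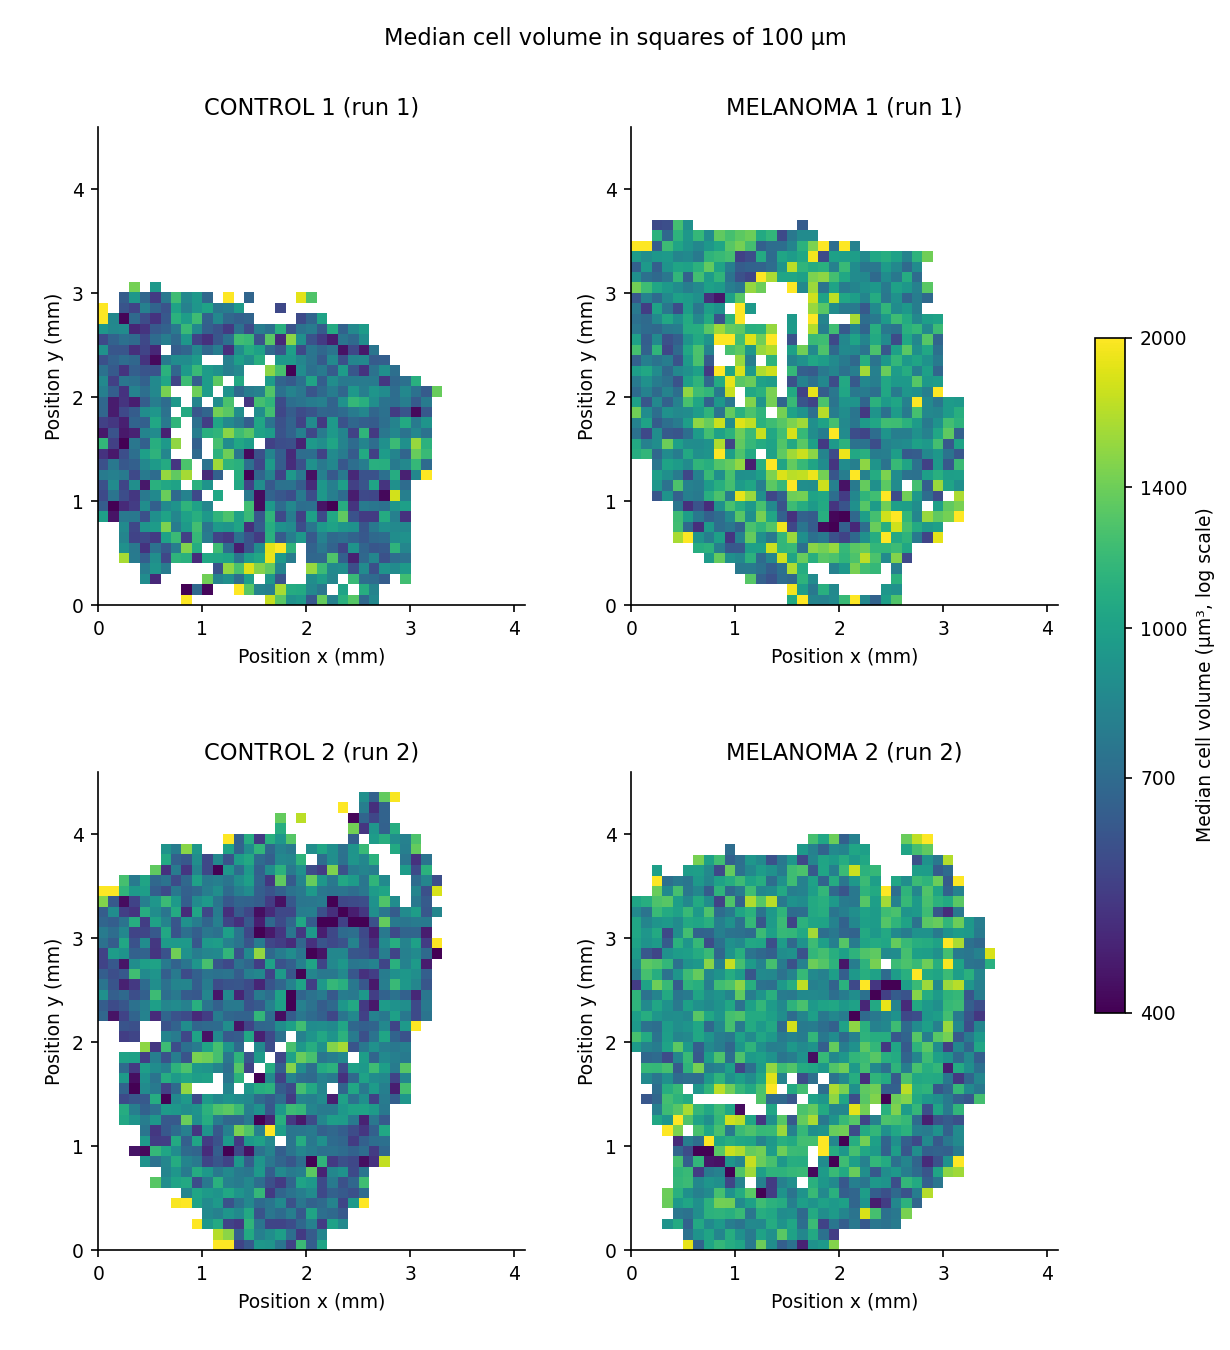
Median cell volume in squares of 100 µm for the 4 sections of runs 1 and 2, coloured on 1 log scale from 400 to 2000 µm3, with positions in mm. Squares with fewer than 5 cells are blank. The MELANOMA maps are lighter over most of their area, with 86.1% and 90.8% of fields above the median CONTROL field.

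Cells were smaller where they lay closer together in every section, and the within-run difference in volume was present at low and high local density. Among cells with fewer than 10 neighbours within 50 µm the median volume was 992 µm3 in CONTROL 1 and 1255 µm3 in MELANOMA 1, and 992 µm3 in CONTROL 2 and 1163 µm3 in MELANOMA 2. With 10 to 19 neighbours it was 767 and 972 µm3 in run 1, and 820 and 951 µm3 in run 2. With 20 to 29 neighbours it was 616 and 749 µm3 in run 1, and 652 and 725 µm3 in run 2. With 30 to 39 neighbours it was 497 and 562 µm3 in run 1, and 526 and 576 µm3 in run 2. MELANOMA cells were larger in each of these 4 classes in both runs. In the most crowded places, with at least 40 neighbours, CONTROL 2 had 408 µm3 and MELANOMA 2 had 427 µm3, and CONTROL 1 had only 29 such cells.

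The volume ratio moved with the choice of objects. Among cells of at least 200 µm3 with at least 50 transcripts it was 1.01 in run 1 (1423 and 1435 µm3) and 1.16 in run 2 (1359 and 1577 µm3). Over all segmented objects it was 1.18 in run 1 (173 and 205 µm3) and 1.05 in run 2 (195 and 205 µm3). Over objects of at least 100 µm3 with no filter on transcripts it was 1.19 in run 1 (333 and 397 µm3) and 1.02 in run 2 (393 and 402 µm3). All these ratios were above 1, but run 1 came close to 1 under the strict filter and run 2 without the filter on transcripts. By transcript class, cells with 10 to 19 transcripts had medians of 510 µm3 in CONTROL 1 and 592 µm3 in MELANOMA 1, and 470 µm3 in CONTROL 2 and 554 µm3 in MELANOMA 2. Cells with at least 100 transcripts had 1923 µm3 in CONTROL 1 and 1869 µm3 in MELANOMA 1, and 1723 µm3 in CONTROL 2 and 1885 µm3 in MELANOMA 2. In run 1 the larger size was thus found among transcript-poor cells and not among transcript-rich ones.

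Transcripts per cell had no common direction. The section medians were 21 in CONTROL 1, 30 in CONTROL 2 and 50 in CONTROL 3, and 27 in MELANOMA 1 and 29 in MELANOMA 2. The MELANOMA values lay inside the CONTROL range. The means were 28 ± 1.41 in MELANOMA (SD, n = 2) and 33.7 ± 14.8 in CONTROL (n = 3), a log2 difference of -0.17 (exact permutation p = 0.8, adjusted p = 1), and 0.16 within runs or without CONTROL 3. Over all objects with no filter it was -1.20 (0.435-fold; exact permutation p = 0.8). Within runs the unfiltered medians were 2 in CONTROL 1 and 3 in MELANOMA 1 (1.5 times). In run 2 they were 4 in CONTROL 2 and 3 in MELANOMA 2 (0.75 times). With the filter, the within-run ratio at the median was 1.29 in run 1 and 0.967 in run 2. The upper part of the distribution went apart further. The 90th percentile was 80 in CONTROL 1 and 104 in MELANOMA 1 (1.30 times), and 154 in CONTROL 2 and 135 in MELANOMA 2 (0.877 times). Cells with at least 100 transcripts made up 6.42% in CONTROL 1 and 10.9% in MELANOMA 1, and 18.2% in CONTROL 2 and 15.7% in MELANOMA 2. In run 1 the tumour-free pair CONTROL ICI 1 and 2 also differed by 1.18 times at the median and by 1.30 times at the 90th percentile. At the 75th percentile the pair had 1.28 times and the tumour pair of run 1 had 1.36 times, and at the 95th 1.27 and 1.30 times. The run 1 difference was thus of similar size to that between 2 sections of 1 group, equal at the 90th percentile and a little larger at the others named here. At the low end the values are held by the filter, and the 10th percentile was 11 or 12 in all 4 sections.

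At equal cell size the 2 runs differed again in direction, except among large cells. Between 400 and 800 µm3 the median was 19 transcripts in CONTROL 1 and 23 in MELANOMA 1, and 22 in CONTROL 2 and 20 in MELANOMA 2. Between 800 and 1600 µm3 it was 32 and 37 in run 1, and 43 and 33 in run 2. Between 1600 and 3200 µm3 MELANOMA was lower in both runs, with 72 and 65 in run 1, and 145 and 94 in run 2. CONTROL 3 had 68 in that class, between the values of the MELANOMA sections. From 3200 µm3 upwards the order in run 1 turned again (55 and 61) on 246 and 555 cells, and in run 2 it was 201 and 105. The mean of the log2 class medians from 100 to 3200 µm3, a value matched for size, gave a ratio of 1.06 in run 1 and 0.823 in run 2. Over all 5 sections it gave a log2 difference of -0.12 (exact permutation p = 0.5).

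**Figure D4:**
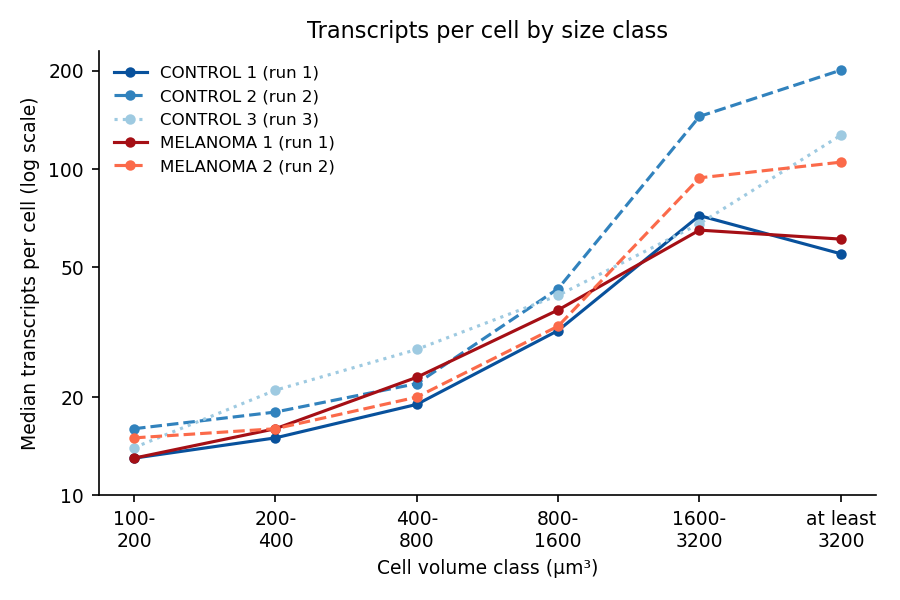
Median transcripts per cell (log scale) in 6 classes of cell volume (µm3), 1 line per section. From 1600 to 3200 µm3 MELANOMA 1 (65) lies below CONTROL 1 (72) and MELANOMA 2 (94) below CONTROL 2 (145), while in smaller classes the order differs between the 2 runs.

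Transcripts per 100 µm3 of cell had medians of 3.96 in CONTROL 1, 5.22 in CONTROL 2 and 3.56 in CONTROL 3, and 4.20 in MELANOMA 1 and 3.99 in MELANOMA 2. The means were 4.09 ± 0.151 in MELANOMA and 4.25 ± 0.865 in CONTROL (SD, n = 2 and 3), a log2 difference of -0.03 (exact permutation p = 1, adjusted p = 1). Leaving out CONTROL 2, the densest section, turned it to 0.12, and leaving out MELANOMA 2 to 0.0031. Within runs the mean log2 difference was -0.15, from 1.06 times in run 1 and 0.764 times in run 2. In run 2 the MELANOMA section was lower at all 8 percentiles (0.764 to 0.857 times). In run 1 it was lower at the 5th to 25th percentiles (0.916 to 0.937 times) and higher from the 50th upwards (1.05 to 1.10 times). The low end was thus lower in both MELANOMA sections, as the 10th percentile shows with 1.31 in CONTROL 1 and 1.20 in MELANOMA 1, and 1.79 in CONTROL 2 and 1.47 in MELANOMA 2. The CONTROL ICI pair had 0.971 to 1.03 times at those 3 low percentiles. Every cell held at least 10 transcripts and MELANOMA cells were larger in both runs, so the filter bears on this low end. The lower values there are not a result separate from volume.

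The density of transcripts rose with crowding in all 5 sections. It went from 1.85 per 100 µm3 at fewer than 10 neighbours to 6.03 at 30 to 39 neighbours in CONTROL 1, and from 1.57 to 7.48 in MELANOMA 1. In CONTROL 2 it went from 2.55 to 9.15, in MELANOMA 2 from 2.14 to 8.82 and in CONTROL 3 from 1.71 to 5.54. In sparse places both MELANOMA sections were lower than the CONTROL section of their run. In crowded places MELANOMA 1 was higher and MELANOMA 2 lower.

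PolyT staining per volume was slightly lower in MELANOMA within both runs. The medians, in units of 1000 intensity units per µm3, were 309 in CONTROL 1 and 300 in MELANOMA 1, 215 in CONTROL 2 and 210 in MELANOMA 2, and 294 in CONTROL 3. The sections of run 2 were far below the other 3. The largest cumulative gap was 61.7% of cells between MELANOMA 1 and MELANOMA 2 and 67.0% between CONTROL 1 and CONTROL 2, while it was 8.97% and 4.38% between the groups within runs 1 and 2. CONTROL 3 of run 3 was 7.26% away from MELANOMA 1 and 15.8% from CONTROL 1, so runs 1 and 3 were not set apart in this way. Over all 5 sections the means were 255 ± 63.8 in MELANOMA (SD, n = 2) and 273 ± 50.1 in CONTROL (n = 3), a log2 difference of -0.10 (exact permutation p = 0.6, adjusted p = 1). Leaving out MELANOMA 2 turned it to 0.16. Within runs it was -0.04, from 0.973 and 0.976 times (exact permutation p = 0.5). The CONTROL ICI pair differed by 0.989 times. MELANOMA was lower in both runs at the 5 percentiles from the 5th to the 75th, and from the 90th upwards run 2 turned to 1.01 times. The filtered (high-pass) PolyT values per volume were 0.958 times in run 1 and 1.01 times in run 2, so the direction in run 2 depended on which PolyT value was used. Summed over the cell, PolyT was higher in MELANOMA, 1.17 times in run 1 and 1.21 times in run 2.

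DAPI staining per volume had medians of 546 in CONTROL 1, 553 in CONTROL 2 and 415 in CONTROL 3, and 522 in MELANOMA 1 and 542 in MELANOMA 2, in the same units. The log2 difference over all sections was 0.09, with means of 532 ± 13.8 in MELANOMA and 505 ± 78.2 in CONTROL (SD, n = 2 and 3; exact permutation p = 1, adjusted p = 1). Within runs or without CONTROL 3 it was -0.05, from 0.956 and 0.979 times (within runs, exact permutation p = 0.5). The CONTROL ICI pair, with 0.927 times, differed by more than either. Below and above the middle the runs parted. In run 1 MELANOMA was lower at all 8 percentiles (0.916 to 0.965 times), and in run 2 it was lower at the 25th and 50th and higher at the 5th and from the 75th upwards. Over all objects DAPI per volume was higher in MELANOMA, 1.05 times in run 1 and 1.10 times in run 2, so the direction depended on the filter. The filtered (high-pass) DAPI values per volume differed by 1.00 times in both runs. Summed over the cell DAPI was 1.20 times higher in run 1 and 1.22 times in run 2.

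**Figure D5:**
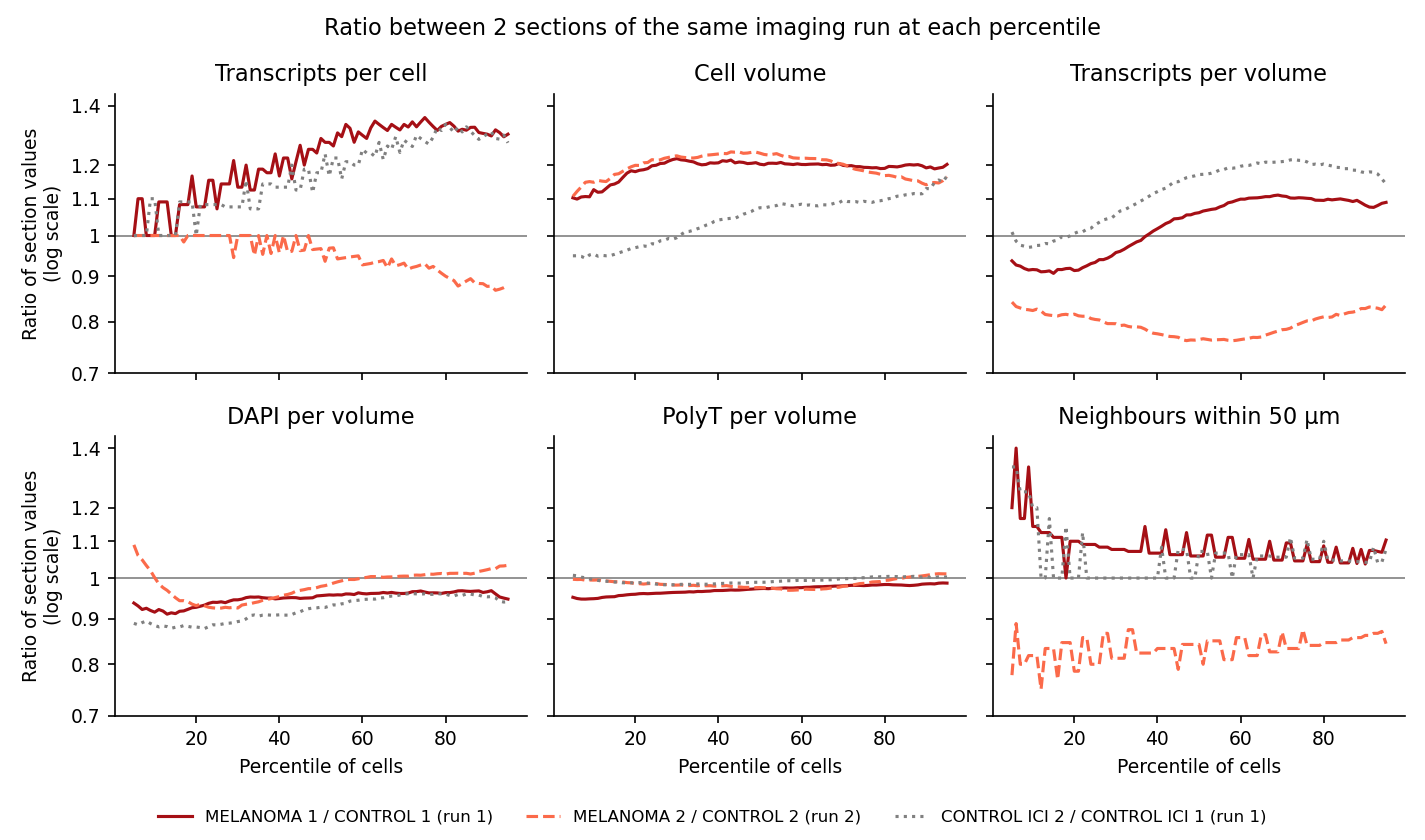
Ratio of 2 sections of the same imaging run at each percentile of cells from the 5th to the 95th, on a log scale, for the 6 measures. Dark red is MELANOMA 1 over CONTROL 1, light red dashed is MELANOMA 2 over CONTROL 2 and grey dotted is CONTROL ICI 2 over CONTROL ICI 1, a pair of 1 group. Volume is the measure in which both tumour lines stay above 1 throughout (1.20 and 1.24 at the median), while transcripts per cell and neighbours part between the runs.

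Crowding also parted between the runs. The median number of other cells within 50 µm was 17 in CONTROL 1, 19 in CONTROL 2 and 19 in CONTROL 3, and 18 in MELANOMA 1 and 16 in MELANOMA 2. The means were 17 ± 1.41 in MELANOMA and 18.3 ± 1.15 in CONTROL (SD, n = 2 and 3), a log2 difference of -0.11 (exact permutation p = 0.3, adjusted p = 1) and -0.08 within runs. The most crowded places went opposite ways as well. Cells with at least 40 neighbours made up 0.209% in CONTROL 1 (Wilson interval at 95%, 0.145% to 0.300%) and 2.62% in MELANOMA 1 (2.40% to 2.87%). In run 2 they made up 2.23% in CONTROL 2 (2.05% to 2.43%) and 0.658% in MELANOMA 2 (0.559% to 0.775%). CONTROL 3 had 6.40%. The intervals cover counting error only and take cells as independent, while crowded cells count as neighbours of each other. The area of the squares of 100 µm that held any cell was 8.66 to 12.1 mm2 in the 4 sections of runs 1 and 2. In CONTROL 3 it was 20.8 mm2. Whether the sections cut the same level of the hippocampus, or held other brain regions in unlike shares, was not tested.

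Counted among all segmented objects, and not cells alone, crowding was lower in MELANOMA within both runs. The cells of CONTROL 1 had a median of 78 objects within 50 µm and those of MELANOMA 1 had 60, while CONTROL 2 had 57 and MELANOMA 2 had 51. Objects left out by the filter were mostly small and low in depth value in these runs, with median depths of 0.699 to 0.746 µm and volumes of 93.9 to 124 µm3. The share of objects under 100 µm3 was 36.0% in CONTROL 1 and 32.7% in MELANOMA 1, and 35.2% in CONTROL 2 and 32.9% in MELANOMA 2. Both MELANOMA sections thus had fewer objects around a cell, and a smaller share of objects under 100 µm3, than the CONTROL section of the same run. Over all 5 sections the sign was the opposite, with a log2 difference of 0.29 (exact permutation p = 0.9).

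The number of cells per mm2 was taken over the squares of 100 µm that held any cell, not over the imaged area. It was 1604 in CONTROL 1, 2134 in CONTROL 2 and 2214 in CONTROL 3, and 1806 in MELANOMA 1 and 1796 in MELANOMA 2. The MELANOMA values again lay inside the CONTROL range and close to each other. At the edge of the filter the counts just outside and just inside were of similar size. Among objects of at least 100 µm3, 664 (CONTROL 3) to 1303 (CONTROL 2) held 9 transcripts and fell just outside, and 662 (CONTROL 3) to 1166 (CONTROL 2) held 10 and fell just inside. Objects with at least 10 transcripts numbered 5 to 115 at 90 to 100 µm3 and 6 to 131 at 100 to 110 µm3. The filter on transcripts still left out many objects of at least 100 µm3. They were 46.1% of all objects in CONTROL 1 and 40.8% in MELANOMA 1. In run 2 they were 32.6% in CONTROL 2 and 36.5% in MELANOMA 2, and in CONTROL 3 they were 13.6%.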

How the data were processed

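Each section has 1 deposited table with 17 columns and a line per segmented object. Per the file headers, which give column names only, the deposited values are a transcript count per object and DAPI and PolyT intensity. The counts are whole numbers and were taken as not normalized. The stains rise with volume and were taken as sums over each object, in arbitrary units. For the software, the segmentation and the probes, the answer is not given in the sources used here. Stains and counts were divided by deposited volume, and neighbours were cells whose centres lay within 50 µm. Section values were compared on the log2 scale with a two-sided exact permutation test of the labels (10 arrangements), and within runs by sign changes of the 2 pair differences (4 arrangements). Cells were never replicates. Totals of 633088 to 3164943 transcripts per section leave little counting error. The functions were tested on simulated data. Members, measures, tests and alternatives were chosen with earlier results of these data known. Bounding-box area, depth, the fields, the cumulative gaps, the CONTROL ICI pair and the classes by transcripts and crowding were added after the tables had been seen. The rule for named genes was to name none, as the tables hold no gene, and all 6 measures were described. Python 3.11.15, numpy 2.4.6, pandas 2.3.3 and scipy 1.17.1 were used.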

Additional observations from a re-analysis of the deposited data

How the results depend on the processing

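Directions over all 5 sections depended on single sections and settings, and some sizes on the filter. With no filter on objects the log2 difference was -1.20 for transcripts per cell (0.435-fold) and -0.86 for volume (0.552-fold), against -0.17 and -0.09. Within runs 1 and 2 the unfiltered ratios were 1.5 and 0.75 for transcripts per cell, and 1.18 and 1.05 for volume. With replicate number as a block, which pairs the same sections as the imaging run, and equally without CONTROL 3, the log2 difference turned to 0.16 for transcripts per cell, 0.29 for volume and -0.048 for DAPI per volume. The block gave -0.15 for transcripts per 100 µm3, -0.04 for PolyT per volume and -0.08 for neighbours. Deviations from the group means over the 6 medians correlated at 0.65 (number 1) and 0.32 (number 2), and the labels do not say what a number marks. With 2 MELANOMA sections a swap of partners can only turn the sign (-0.65 and -0.32). CONTROL 3 with MELANOMA 2, of unlike number, gave 0.24. These values therefore cannot decide whether the numbers mark pairs. With 1 section left out, the differences ranged from -0.47 to 0.16 for transcripts, -0.28 to 0.29 for volume, -0.15 to 0.12 for transcripts per 100 µm3, -0.048 to 0.16 for DAPI, -0.36 to 0.16 for PolyT and -0.19 to -0.02 for neighbours. Leaving out CONTROL 2 (0.12) or MELANOMA 2 (0.0031) turned transcripts per 100 µm3, and leaving out MELANOMA 2 turned PolyT (0.16). Cells of at least 200 µm3 with 50 transcripts gave 0.0018 for transcripts and 0.072 for transcripts per 100 µm3. Bounding-box area, added after the tables were seen, gave 0.32 in place of volume. Summed DAPI gave -0.070. Neighbours gave 0.29 among all objects, 0.30 with no filter and 0.13 with no filter on transcripts. Where a setting turned a direction for reasons other than the sections it left out, the cause was not tested. No setting gave a p at or below 0.05, and with 3 sections against 2, or fewer, none could.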
